A study of Homo sapiens with 4 samples.

Results

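The genes described here are 8 targets of the tumour suppressor p53 that act in DNA repair, DNA replication and the supply of deoxynucleotides (dNTPs): DDB2, XPC, POLH, POLK, RRM2B, RPS27L, PCNA and PCNA-AS1. They were chosen by name for these roles, with earlier results of these data known. The background was 59679 RefSeq genes on the chromosomes covered, 20037 of them protein-coding. A peak was assigned to a gene when it lay inside the gene's RefSeq span or within 10 kb of it. The peaks came from chromatin immunoprecipitation with sequencing (ChIP-seq) of p53 in HCT116, a human colorectal carcinoma line, grown as spheroids at passages 13 to 18 in serum-free medium with EGF and basic FGF, each at 20 ng/ml. Cells labelled p53-R273H were set against a wildtype control labelled ctrl-19-7. In R273H a histidine stands in place of an arginine that contacts DNA. The labels name neither the way in which the mutation was introduced nor whether a line is 1 clone. The antibody in both genotypes was DO-1. Each genotype had 1 ChIP library and 1 input library, so no difference between genotypes has a replicate check and no test between them was made. The R273H list held 2008 peaks with authors' scores of 50.02 to 3204, and the wildtype list 2059 with scores of 50.01 to 3106. Read depth is unknown, a site without a listed peak is not shown to be free of p53, and scores are read only within their own list.

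p53 is a transcription factor that binds DNA as a tetramer, at elements made of a pair of 10-base half-sites. Among its targets are genes that find and bypass DNA damage. DDB2 and XPC encode sensors that start nucleotide excision repair of ultraviolet lesions. POLH and POLK encode translesion polymerases, which copy damaged templates that stall the replicative enzymes. RRM2B encodes the p53-inducible small subunit of ribonucleotide reductase, the enzyme that makes dNTPs, and PCNA encodes the sliding clamp that holds polymerases on DNA. RPS27L encodes a ribosomal protein closely related to RPS27, and PCNA-AS1 is a long noncoding RNA transcribed from the opposite strand at PCNA.

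The promoter sequences of 3 of these genes held an exact p53 half-site inside a wildtype peak, and they are shown because the peaks of the 2 lists part ways among them. Promoter windows of 300 bases, from 250 before to 50 after a transcription start, were taken from RefSeq (GRCh38.p14) and were found for 7 of the 8 genes. The half-site consensus reads the same on both strands and was the only motif searched. It occurred without mismatch in 2329 of 35116 windows, 6.63%. Capitals mark exact matches, and each sequence is written 5′ to 3′ on its gene's strand.
DDB2, chr11:47214975-47215003, plus strand, from just after the second transcription start: gtttGAACAAGCCCtGGGCATGTTTggcg
PCNA, chr20:5120005-5120208, minus strand, the part of the window under the wildtype peak: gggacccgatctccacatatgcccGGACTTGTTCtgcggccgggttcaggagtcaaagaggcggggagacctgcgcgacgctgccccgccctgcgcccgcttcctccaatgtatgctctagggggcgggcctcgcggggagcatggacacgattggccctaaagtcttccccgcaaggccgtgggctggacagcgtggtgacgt
RPS27L, chr15:63157478-63157689, minus strand, the part before the start under the wildtype peak: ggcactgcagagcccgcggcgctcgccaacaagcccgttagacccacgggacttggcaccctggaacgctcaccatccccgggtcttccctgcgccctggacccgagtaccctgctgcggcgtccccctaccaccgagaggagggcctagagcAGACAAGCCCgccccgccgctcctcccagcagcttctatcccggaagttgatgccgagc

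Of the 8 genes, 2 carried a peak of the R273H list, 5 carried one of the wildtype list and 3 carried neither. An R273H peak was found at 2.36% of all RefSeq genes and a wildtype peak at 3.48%. Because the genes were chosen with earlier results of these data known, their counts are no independent measure against such shares. The 2 genes with an R273H peak were RPS27L and RRM2B, and at both it overlapped a wildtype peak, as was the case for 0.903% of all genes. At DDB2, PCNA and PCNA-AS1 only the wildtype list held a peak. PCNA and PCNA-AS1 share that peak, so the 5 genes stand for 4 peaks. Among the 7 protein-coding members, peaks of the R273H list lay at 2, of the wildtype list at 4 and overlapping ones at 2, beside 3.09%, 4.83% and 1.13% of all protein-coding genes. XPC, POLH and POLK had no peak in either list.

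**Figure D1:**
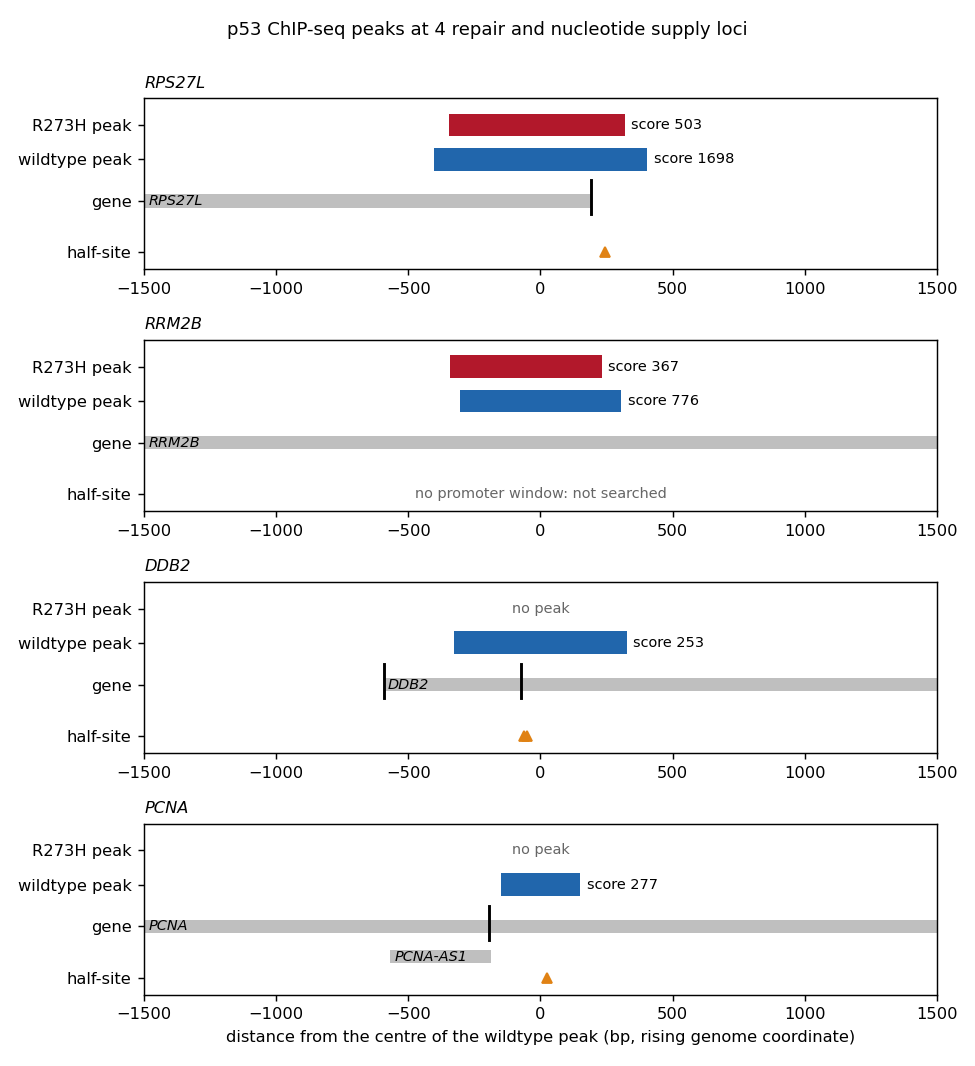
Peaks at RPS27L, RRM2B, DDB2 and PCNA, with R273H peaks in red above wildtype peaks in blue and distance from the centre of the wildtype peak in bp on the x axis. Grey bars are gene spans, black ticks are annotated transcription starts from the promoter table (none for RRM2B), and orange triangles are exact p53 half-sites within promoter windows. RPS27L and RRM2B carry a peak of each list at the same place, and DDB2 and PCNA carry a wildtype peak alone.

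RPS27L had the highest-scoring peak of these genes in both lists. The R273H peak lay at chr15:63156940-63157604 (hg38) with a score of 503 and rank 79 of 2008, above 96.1% of its list. The wildtype peak lay at chr15:63156882-63157689 with a score of 1698 and rank 58 of 2059, above 97.2% of its list. The R273H peak was 665 bp wide and fell wholly within the 808 bp wildtype peak, and their midpoints were 13.5 bp apart. Both straddled the annotated transcription start, which lies at the higher-coordinate end of this minus-strand gene. Their midpoints were inside the gene, 205 bp from the start in R273H and 191.5 bp in wildtype, and the peaks reached 127 and 212 bp upstream of it. The exact half-site AGACAAGCCC, 59 bases before the start, lay inside both peaks but off centre, 259.5 bp from the R273H midpoint and 246 bp from the wildtype midpoint. The centre of either peak lies beyond the promoter window, and its sequence was not examined. No other RefSeq gene lay within 10 kb of either peak.

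The deposited lists also held overlapping peaks inside RRM2B, on chromosome 8. The R273H peak spanned 102236506 to 102237080, with a score of 367 and rank 105. The wildtype peak spanned 102236543 to 102237153, with a score of 776 and rank 136. They shared 538 bp, which is 93.6% of the 575 bp R273H peak and 88.1% of the 611 bp wildtype peak. The R273H midpoint lay 55 bp lower in coordinate. Unlike the RPS27L peaks, both lay wholly inside the gene and did not reach its ends. They were near the higher-coordinate end of the 34461 bp gene, with midpoints 2168 bp (R273H) and 2113 bp (wildtype) from it. The pseudogene SUMO2P19 was 4958 bp from the R273H peak and 4885 bp from the wildtype peak. RRM2B had no promoter window, so no motif was searched there.

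DDB2 carried a wildtype peak over its second annotated transcription start. The peak, at chr11:47214720-47215374, was 655 bp wide with a score of 253 and rank 323, above 84.3% of the wildtype list. Its midpoint was 73 bp from the start at 47214974 and 593 bp from the first start at 47214454, which the peak did not cover. The window of the second start lay wholly under the peak, 300 of 300 bases, and no other RefSeq gene lay within 10 kb. In the stretch printed above, the exact half-sites GAACAAGCCC and GGGCATGTTT are 1 base apart and begin 5 and 16 bases after the start. They lay 63.5 and 52.5 bp from the peak's midpoint. In the R273H list the nearest peak was 1504464 bp above the gene, at a score of 70.7.

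Pairs of exact half-sites at most 13 bases apart were rare. They were found in 10 of 35116 promoter windows, 0.0285%, and DDB2's second window was one of these. The search for pairs was added after the windows were seen. Of the 10 windows, 4 overlapped an R273H peak and 7 a wildtype peak, beside 30 and 65 of all 35116 windows. The 4 were among the 7. LNCTAM34A, EIF2AK3-AS1, PTCHD4 and LOC124901737 had peaks of both lists. DDB2 (score 253), the p53-linked long noncoding RNA gene PURPL (239) and MCC, mutated in colorectal cancers (50.3), had a wildtype peak only. LOC105376065, DYNC2H1 and LOC124903192 had neither. Among the 7 wildtype peaks, those with an R273H counterpart scored between 322 and 3100, and the 3 without scored lower.

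PCNA and PCNA-AS1 shared a narrower wildtype peak. It spanned chr20:5120005-5120304, 300 bp, with a score of 277 and rank 301, above 85.4% of the wildtype list. Of the wildtype peaks, 52.8% were wider, against 21.5% wider than the DDB2 peak. It lay inside the PCNA span, 5052 bp from the lower-coordinate end and 6318 bp from the higher one, and 47 bp upstream of the second of 2 annotated PCNA starts (5119958, minus strand). PCNA-AS1, a 384 bp gene on the plus strand, ended 36 bp short of the peak. The peak covered 204 bases of the window of that PCNA start and none of the window of the first start or of PCNA-AS1. The exact half-site GGACTTGTTC, 226 bases before the start, lay 25 bp from the peak's midpoint. The 10 bases before it in the sequence above, ACATATGCCC, differ from the half-site consensus at 2 positions. TMEM230 (6929 bp), the phosphatidylinositol synthesis gene CDS2 (6704 bp) and the small nucleolar RNA gene LOC124900464 (1113 bp) were also within 10 kb. The nearest R273H peak was 3337607 bp below PCNA, at a score of 65.0.

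**Figure D2:**
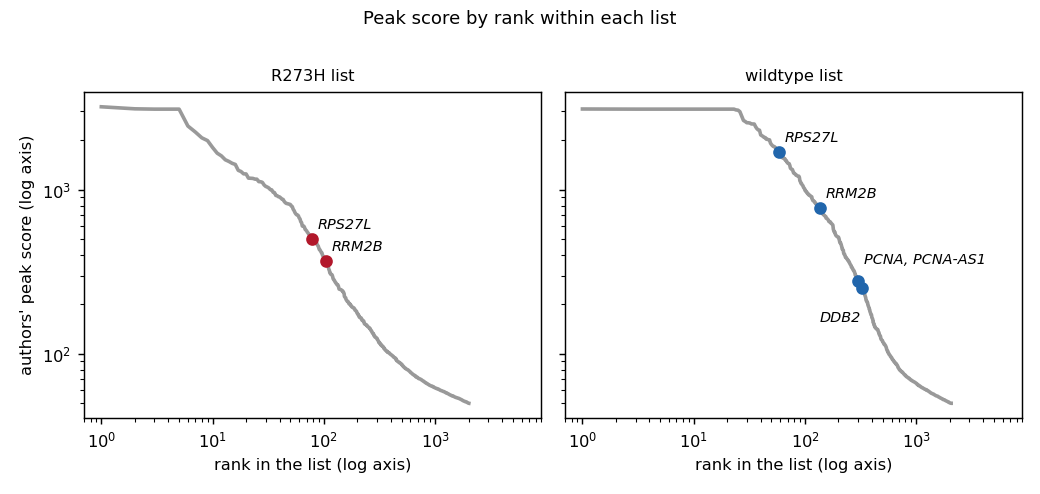
Authors' peak score against rank within each list, both axes logarithmic, with the R273H list left and the wildtype list right; grey lines are all peaks and dots are the peaks at the genes described. RPS27L and RRM2B lie at ranks 79 and 105 in R273H and 58 and 136 in wildtype, and PCNA and DDB2 at ranks 301 and 323 of the wildtype list.

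The wildtype peaks with and without an R273H counterpart differed in rank. Of the 4 wildtype peaks at these genes, those with a counterpart ranked 58 and 136 and those without ranked 301 and 323. Sharing in the wildtype list was 98% in its first 100 ranks and 4% in ranks 901 to 1000, so each peak was set beside its rank neighbours, up to 50 on either side. Around RRM2B 98 of 100 such wildtype peaks overlapped an R273H peak, and around RPS27L 83 of 84, where ties at the top of the list leave fewer neighbours. Around PCNA 67 of 100 did, and around DDB2 61 of 100. DDB2 and PCNA thus belong to a range of ranks in which 39 and 33 of 100 neighbours also lacked a counterpart. In the R273H list, 91 of 100 peaks ranked around RPS27L and 90 of 100 around RRM2B overlapped a wildtype peak. Whether reads lay over DDB2 and PCNA in the R273H library, below the listing threshold, was not tested.

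**Figure D3:**
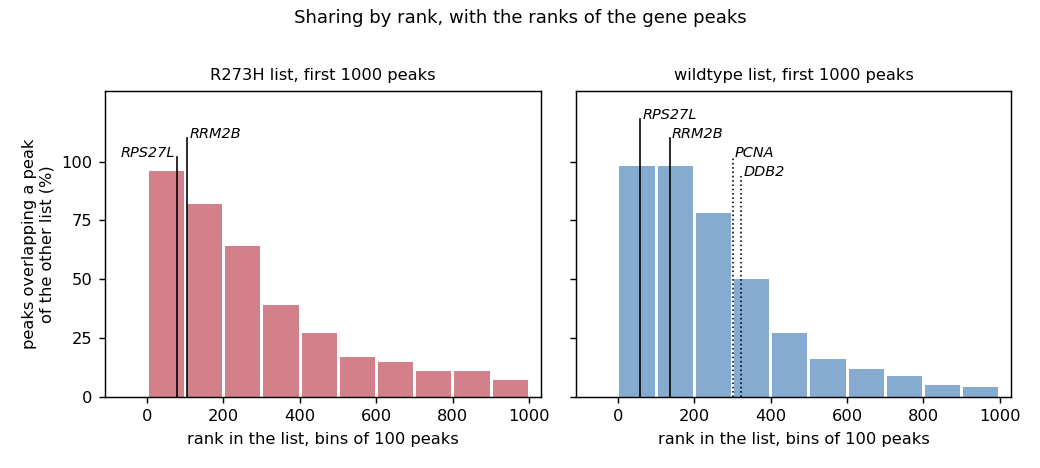
Share of peaks that overlap a peak of the other list, in bins of 100 ranks over the first 1000 peaks, with the R273H list left and the wildtype list right. Vertical lines mark the ranks of the gene peaks, solid with a counterpart and dotted without; the dotted DDB2 and PCNA lines fall in the wildtype bin of ranks 301 to 400, where 50% of peaks were shared, and the solid wildtype lines in bins at 98%.

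For XPC, POLH and POLK the nearest peak of each list, taken in turn, lay between 200138 and 3659659 bp away. For XPC the nearest R273H peak was 955893 bp away (score 50.4) and the nearest wildtype peak 200138 bp away (score 55.7), both close to the lowest scores listed. POLH was 518412 bp from an R273H peak (61.2) and 1064643 bp from a wildtype peak (323). POLK was 3659659 bp from an R273H peak (82.6) and 863263 bp from a wildtype peak (61.9). For all RefSeq genes the median distance was 973 kb in the R273H list and 609 kb in the wildtype list. XPC was thus near the R273H median and closer than the wildtype median. POLH was closer than the median in R273H and farther in wildtype, and POLK was farther in both. None of the 3 promoter windows held a half-site with at most 1 mismatch. Such a half-site was in 45.1% of all windows, 44.6% of those under wildtype peaks and 60% of those under R273H peaks. With 3 windows, the lack of one is no result about these genes. Peak numbers ran on without a gap past all 8 genes in both lists, so no numbered peak is missing there.

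**Figure D4:**
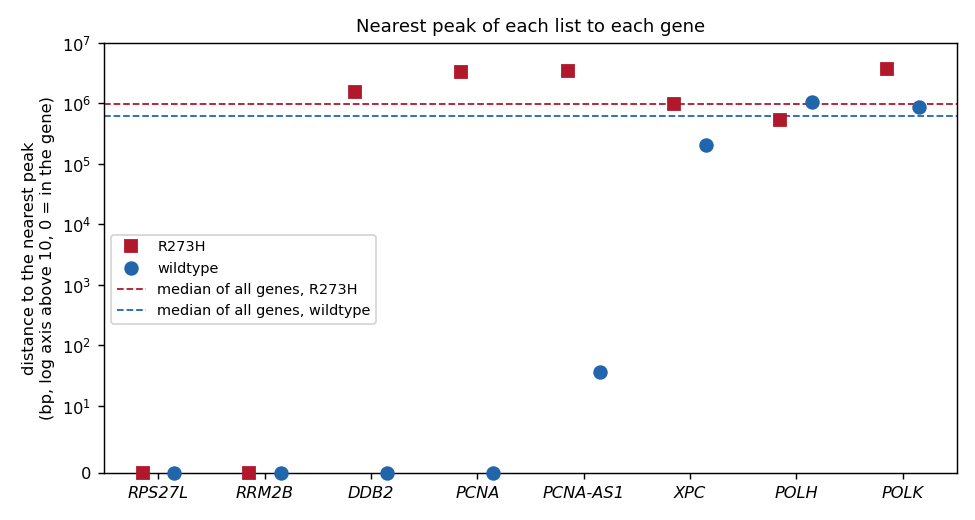
Distance in bp from each of the 8 genes to the nearest peak, R273H as red squares left of wildtype as blue circles, on a log axis above 10 bp; 0 means a peak inside the gene. Dashed lines are the medians over all RefSeq genes, 973494 bp for R273H and 608902 bp for wildtype. RPS27L and RRM2B are at 0 in both lists, DDB2 and PCNA at 0 in the wildtype list only, and PCNA-AS1 at 36 bp there.

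Other genes of the same pathways were counted in the same way. Over 117 genes in 6 lists, members included, peaks lay at 4 in the R273H list and at 11 in the wildtype list, which is 3.42% and 9.40%. Without the 7 listed members, 2 of 110 genes (1.82%) carried one of the R273H list and 7 (6.36%) one of the wildtype list, beside 3.09% and 4.83% of all protein-coding genes, so neither share stood far from that background. The 2 were REV3L and GADD45A, and both also had a wildtype peak. Of 33 nucleotide excision repair genes, 0 had an R273H peak and 1 (3.03%), DDB2, had a wildtype peak, a share near the background. DDB1, whose protein is the partner of DDB2 in damage recognition, was 46898 bp from an R273H peak and 305641 bp from a wildtype peak. Of 21 dNTP supply genes, 1 (4.76%), RRM2B, had a peak in each list, also a share near the background. RRM2, the gene of the other small subunit of ribonucleotide reductase, was 1013002 bp from an R273H peak and 3293608 bp from a wildtype peak, and RRM1, which encodes the large subunit, was 325421 and 140092 bp away in the same order. Of 3 genes grouped only by the shared name S27, 1 (33.3%), RPS27L, had a peak in each list. With 3 genes this share, beside 3.09% and 4.83% of all protein-coding genes, is only a description. RPS27 was 2224355 bp from an R273H peak and 319445 bp from a wildtype peak, and RPS27A was 2107799 and 3855801 bp away.

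A list of 24 genes held the replication and checkpoint clamps, their loaders, replicative polymerase subunits and related factors. Of these genes, 0 had an R273H peak and 5 (20.8%) had a wildtype peak, beside 3.09% and 4.83% of all protein-coding genes. The 5 include the member PCNA, and the list was drawn up with earlier results of these data known, so the wildtype share is only a description. At that R273H background, a count of 0 in 24 is no result about the list. Besides PCNA the 5 were RFC3 and RFC4, subunits of the clamp loader, RAD1, part of the checkpoint clamp, and PCLAF, a PCNA-binding factor. PCNA's score of 277 was the highest of the 5. RFC3 scored 56.3, with the peak inside the gene but 122792 bp from its annotated start. RFC4 scored 72.2 at a distance of 4400 bp, RAD1 90.5 at 5391 bp, and PCLAF 61.6 inside the gene. These 4 ranked between 626 and 1458 in the wildtype list. RFC3 and PCLAF each had a promoter window with 1 exact half-site, and neither window overlapped a peak. Half-sites were not listed for RFC4 and RAD1.

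REV3L, the catalytic subunit gene of the translesion polymerase zeta, had peaks of both lists. It was 1 of 17 translesion genes (5.88%) with a peak in each list, a share near the background. The R273H peak, at chr6:111483905-111484257, scored 126 at rank 295. The overlapping wildtype peak, at chr6:111483929-111484409, scored 405 at rank 226. They shared 329 bp, 93.2% of the R273H peak and 68.4% of the wildtype peak. They lay 194 bp (R273H) and 218 bp (wildtype) upstream of the first annotated start of this minus-strand gene. A second wildtype peak, of score 71.9, lay 32 bp from the gene and had no R273H counterpart. The REV3L promoter windows held no half-site with at most 1 mismatch, but they covered only 57 bp of the 353 bp R273H peak. The centres of both overlapping peaks lay beyond the windows, and their sequence was not examined. Among 19 other repair genes linked to p53, GADD45A, a stress gene whose protein binds PCNA, scored 73.8 at rank 655 in R273H and 283 at rank 297 in wildtype. WRN, a RecQ helicase gene, had 2 wildtype peaks (207 and 98.6) and no R273H peak.

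The genes most alike to RPS27L and RRM2B were sought by the percentile of the highest-scoring peak in each list, among 255 other protein-coding genes with peaks in both. RPS27L stood at percentiles 96.1 (R273H) and 97.2 (wildtype). Closest to it were TMEM260 at 96.3 and 96.8 and the calmodulin-dependent kinase gene CAMK4 at 96.6 and 97.3. RRM2B stood at 94.8 and 93.4, next to PLSCR5 at 94.7 and 93.5 and PRKAG2, an AMP-activated kinase subunit gene, at 94.7 and 94.1. The likeness rests on 2 values per gene.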

How the data were processed

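p53 ChIP-seq peak lists of 2 ChIP libraries were used, 1 per genotype; the inputs have no list of their own. The submitters' processing notes name hg38 as the build and the tools Bowtie 1.2.2, MACS and HOMER, with no role. For the peak threshold, use of the input and pooling, nothing is stated. The deposited score per peak is the authors' own and its scale is not given. Lists were matched to samples by name, since the sample descriptions name them inconsistently. Peak numbers in the lists as read began at 193 (R273H) and 228 (wildtype), so the lowest 192 and 227 numbers were not analysed here.

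Chromatin was crosslinked for 5 minutes in 1% formaldehyde. Distances, overlaps of at least 1 bp, ranks and half-site matches were computed in Python 3.11.15 with pandas 2.3.3 and numpy 2.4.6, and checked on simulated data. Gene spans (RefSeq, GRCh38.p14, the assembly of hg38) carry no exons, so exon, intron and untranslated region are not given. Pairs of half-sites were an addition made after the windows were seen. With 1 library per genotype no p-value was computed. The members and lists were chosen with earlier results of these data known. All 8 members, every listed pathway gene with a peak, neighbours within 10 kb and the 2 most alike genes are named, except 1 neighbour that is not reported here. Alternatives were other distances, score floors, overlap rules, 1 gene per locus and 1 mismatch in the half-site.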

Additional observations from a re-analysis of the deposited data

How the results depend on the processing

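All 25 alternative values stayed within 1.5 times the reported counts. The number of genes with an R273H peak was 2 under all 7 alternatives, and the number with overlapping peaks was 2 under all 10. The number with a wildtype peak, 5, was 4 when only peaks inside the gene counted, which drops PCNA-AS1, and 4 with 1 gene per locus. It was 5 within 2 kb, within 50 kb, near gene ends, and with score floors of 100 or the median of both lists (63.4). All member peaks scored at least 253 and lay at most 36 bp from their genes. The score floors and the 2 kb window could therefore change no count. Nor could the rules of 50% reciprocal overlap and midpoints within 200 bp. The paired peaks shared at least 82.3% of either width, with midpoints at most 55 bp apart. Where a member had no peak of a list, the nearest lay at least 200138 bp away. The 50 kb window and an overlap rule allowing gaps of up to 1000 bp could therefore change no count either. Genes with a half-site in a promoter window numbered 3 without mismatch and 4 with up to 1, which adds PCNA-AS1. No paired analysis was possible because each genotype had 1 ChIP library and no result comes from a test. The single libraries, the unknown depth and the unknown score scale limit every comparison between the lists, and a missing peak cannot be told apart from one below the threshold.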

Other observations

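Few promoter windows lay under a peak at all. Of 35116 windows, 30 overlapped an R273H peak and 65 a wildtype peak, with 21 in common. An exact p53 half-site was present in 8 of the 30 windows (26.7%) and in 15 of the 65 (23.1%), beside 6.63% of all windows. In the 21 windows under peaks of both lists it was present in 8 (38.1%). RPS27L was one of the 8, and DDB2 and PCNA were among the 15 under wildtype peaks. Windows that hold a half-site with up to 1 mismatch numbered 18 of 30 under R273H peaks and 29 of 65 under wildtype peaks (44.6%), beside 45.1% of all windows. Some genes have several windows, so these shares are descriptions.

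Some other genes of the translesion and excision repair lists lay at like distances from peaks of both lists, beyond the 10 kb limit. RAD18, which encodes the ubiquitin ligase that modifies PCNA at stalled forks, was 43670 bp from an R273H peak and 43438 bp from a wildtype peak. For REV1, a translesion polymerase gene, the distances were 359284 and 359218 bp in the same order, and for XPA, an excision repair factor gene, 485951 and 485734 bp. These 3 genes were picked after their values were seen.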
